A study of Danio rerio with 20 samples.

Results

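The 10 genes described here encode basic helix-loop-helix (bHLH) transcription factors of neural development: 4 Her repressors (her6, her9, her4.2 and her15.1), 3 proneural activators (ascl1a, ascl1b and neurog1) and 3 factors of differentiating neurons (bhlhe22, bhlhe23 and neurod4). They are 10 of 22851 genes in the authors' table and were picked by symbol, with earlier results of these libraries known. Where a gene had several transcripts, the one with the highest mean over all 20 libraries was used, a value that does not look at the groups. All 10 were among the 19289 genes tested.

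The libraries came from whole zebrafish larvae of the AB wild type, exposed between 6 and 96 hours post fertilization (hpf) and collected at 96 hpf, with 10 larvae in each of 4 samples per group. POP10 and POP70 larvae received a mixture of persistent organic pollutants at 10 and 70 times the average levels in Scandinavian blood. PFOS10 and PFOS70 larvae received perfluorooctane sulfonic acid (PFOS) alone, at its level in the low and in the high mixture. Control larvae received the solvent, 0.1% DMSO, a level that the labels state for Control alone. The labels do not say whether pools came from separate clutches and name no batch or day. The p-values thus rest on the variation among these pools, and a batch that coincided with a group cannot be told apart from it.

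In the developing brain and retina, Her proteins, the fish relatives of the mammalian Hes family, repress proneural genes and keep cells as progenitors. Notch signalling from a neighbouring cell switches on her4 and her15 genes, whereas her6 and her9 also mark territories in which neuron formation is held back. Proneural activators such as Neurog1 commit a cell to the neuronal path and raise Notch ligands, and later bHLH factors such as Neurod4 act while the neuron acquires its type. In the mouse, Bhlhe22 and Bhlhe23 act in retinal amacrine and bipolar cells and in brain and spinal interneurons.

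Libraries held 8572286 to 11243574 reads, and the values are log2 RPM, read counts scaled to a common total and not divided by length, so levels of different genes are not compared. The 10 genes were read at between 67 (neurog1) and 2152 (bhlhe22) reads in a library. The 4 PFOS10 libraries stood apart from the others: on the first principal component, with 39.6% of the variance, they lay at -61.5 to -49.4, against -21.9 to 45.0 in the other 16. The median level within a library, over all tested genes, was on average 0.09 log2 lower in PFOS10 than in Control, 0.10 higher in POP10 than in PFOS10 and 0.14 higher in PFOS70 than in PFOS10, and the shift to equal medians removes these offsets. The median of the gene differences themselves, another quantity, was -0.03, 0.04 and 0.05 in these comparisons. RNA of whole larvae was measured, so fewer cells of a type and less RNA per cell cannot be told apart.

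The larvae at the low PFOS level had the highest mean of the 5 groups for each of the 10 genes. In PFOS10 against Control, 8 of the 10 genes rose past the threshold (adjusted p under 0.05 over all tested genes): the proneural genes ascl1b by 1.73-fold, ascl1a by 1.67-fold and neurog1 by 1.60-fold, then her15.1, bhlhe23, her6, her9 and neurod4 by 1.31- to 1.41-fold. Across all tested genes 1.28% rose and 6.97% fell in this comparison. No gene of the 10 passed the threshold in POP10, POP70 or PFOS70 against Control.

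**Figure D1:**
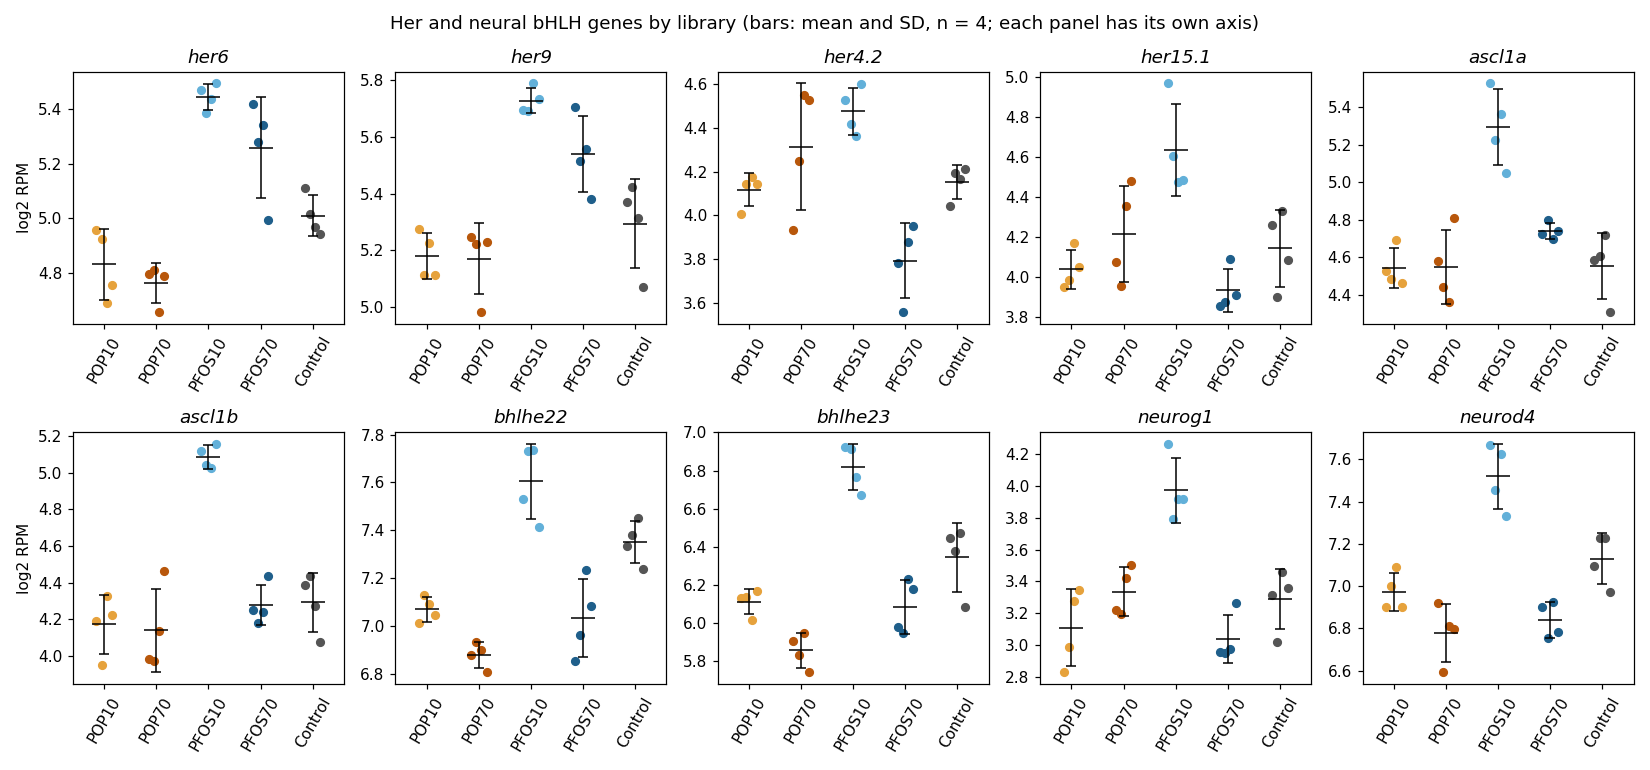
Log2 RPM of each of the 10 genes in every library, 1 panel per gene, with the groups in the order POP10, POP70, PFOS10, PFOS70 and Control on the x axis, 1 point per library and a bar at the mean of 4. The PFOS10 mean is the highest in every panel, and all 4 PFOS10 points lie above the Control points in 9 panels; in that of bhlhe22 the groups overlap.

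Of the Her repressors, her6 and her9 had the same order of group means. Another order was common to her4.2 and her15.1, and the proneural gene neurog1 had it too. bhlhe22, bhlhe23 and neurod4 also had an order in common. Groups next to each other in these orders mostly overlapped, with mean gaps as small as 0.01 log2 in her9 and 0.04 in her4.2. her6 (transcript her6-201, GRCz11 chromosome 6, 36551083 to 36552844, minus strand), the counterpart of mammalian Hes1, read 4.96, 4.92, 4.69 and 4.75 log2 RPM in POP10 larvae and 4.80, 4.81, 4.66 and 4.79 in POP70 larvae. It read 5.47, 5.39, 5.44 and 5.50 log2 RPM in PFOS10 larvae and 5.42, 5.28, 5.34 and 4.99 in PFOS70 larvae, against 5.11, 5.02, 4.97 and 4.94 in Control larvae. All POP70 libraries lay below, and all PFOS10 libraries above, the Control range, and 3 of 4 PFOS70 libraries lay above it. her9 (her9-201, chromosome 23, 23399520 to 23401305, minus strand), a close relative of her6, read 5.27, 5.11, 5.22 and 5.11 log2 RPM in POP10 larvae and 5.25, 5.22, 4.98 and 5.23 in POP70 larvae. It read 5.70, 5.69, 5.79 and 5.73 log2 RPM in PFOS10 larvae and 5.71, 5.51, 5.56 and 5.38 in PFOS70 larvae, against 5.37, 5.42, 5.31 and 5.07 in Control larvae. The PFOS10 libraries lay above every Control library, and the ranges of PFOS10 and PFOS70 overlapped for both genes.

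Against Control, her6 differed by 0.44 ± 0.09 log2 in PFOS10 larvae (SE, limma adjusted p = 0.00769) and by 0.25 ± 0.09 in PFOS70 larvae (adjusted p = 0.297). her9 differed by 0.43 ± 0.09 in PFOS10 larvae (adjusted p = 0.00769) and by 0.25 ± 0.09 in PFOS70 larvae (adjusted p = 0.297). Both thus had positive differences at both PFOS levels, with only the low level past the threshold. In POP70 against Control the differences were -0.25 ± 0.09 for her6 (adjusted p = 0.409) and -0.12 ± 0.09 for her9 (adjusted p = 0.608), which missed the threshold.

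her4.2 and her15.1, Hes5-like Notch targets, had their lowest means in PFOS70 larvae, as had neurog1. her4.2 (her4.2-202, chromosome 23, 21455154 to 21456942, plus strand) read 4.00, 4.14, 4.18 and 4.15 log2 RPM in POP10 larvae and 3.93, 4.25, 4.55 and 4.53 in POP70 larvae. It read 4.53, 4.42, 4.36 and 4.60 log2 RPM in PFOS10 larvae and 3.78, 3.56, 3.88 and 3.95 in PFOS70 larvae, against 4.04, 4.19, 4.17 and 4.21 in Control larvae. The PFOS70 libraries all lay below the Control range and the PFOS10 libraries all above it, while POP70 had 1 library below it and 3 above. her15.1 (her15.1-201, chromosome 11, 41981959 to 41984487, plus strand) read 3.95, 3.98, 4.17 and 4.05 log2 RPM in POP10 larvae and 4.07, 3.95, 4.35 and 4.48 in POP70 larvae. It read 4.97, 4.60, 4.48 and 4.48 log2 RPM in PFOS10 larvae and 3.85, 3.87, 4.09 and 3.91 in PFOS70 larvae, against 4.26, 3.90, 4.33 and 4.08 in Control larvae. The PFOS10 libraries lay above the Control range, with 1 library well above the other 3.

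In PFOS10 against Control, her15.1 rose by 0.49 ± 0.13 log2 (limma adjusted p = 0.026), and her4.2 differed by 0.32 ± 0.12 (adjusted p = 0.0944). In PFOS70 against Control the differences were -0.36 ± 0.12 for her4.2 (adjusted p = 0.276) and -0.21 ± 0.13 for her15.1 (adjusted p = 0.546). The her15.1 call was lost without PFOS10 replicate 1 (adjusted p = 0.0916), without Control replicate 2 (0.0885) or without Control replicate 4 (0.0866), and in a fit of the compared groups alone (0.0596). Both genes lie in tandem arrays of near-identical copies, and no source used here says how reads shared between copies were counted, so their values are uncertain. Of the neighbouring copies, her15.2 averaged 3.75 ± 0.33 log2 RPM in PFOS10 larvae and 2.97 ± 0.09 in Control larvae (SD, n = 4 each), and her4.1 averaged 3.28 ± 0.17 in PFOS10 larvae and 3.06 ± 0.06 in Control larvae.

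The proneural genes had the largest differences of the 10 between the low PFOS level and Control. ascl1a (ascl1a-201, chromosome 4, 17417111 to 17419193, plus strand), which Müller glia of the injured zebrafish retina switch on as they form progenitors, read 4.53, 4.48, 4.69 and 4.46 log2 RPM in POP10 larvae and 4.58, 4.44, 4.36 and 4.81 in POP70 larvae. It read 5.53, 5.22, 5.37 and 5.05 log2 RPM in PFOS10 larvae and 4.73, 4.80, 4.70 and 4.74 in PFOS70 larvae, against 4.58, 4.61, 4.72 and 4.31 in Control larvae. The PFOS10 range touched that of no other group. ascl1b (ascl1b-203, chromosome 7, 49715750 to 49717195, plus strand), its paralogue, read 4.19, 3.95, 4.33 and 4.22 log2 RPM in POP10 larvae and 3.98, 3.97, 4.14 and 4.46 in POP70 larvae. It read 5.12, 5.05, 5.02 and 5.16 log2 RPM in PFOS10 larvae and 4.25, 4.18, 4.24 and 4.43 in PFOS70 larvae, against 4.39, 4.44, 4.27 and 4.08 in Control larvae. The PFOS10 libraries lay close together and above every other library, and the other 4 groups overlapped.

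neurog1 (neurog1-201, chromosome 14, 26703331 to 26704829, minus strand), which zebrafish need for the neurons of cranial and spinal sensory ganglia, read 2.83, 2.99, 3.28 and 3.34 log2 RPM in POP10 larvae and 3.22, 3.20, 3.42 and 3.51 in POP70 larvae. It read 4.26, 3.79, 3.91 and 3.91 log2 RPM in PFOS10 larvae and 2.96, 2.95, 2.98 and 3.26 in PFOS70 larvae, against 3.32, 3.02, 3.46 and 3.36 in Control larvae. Again all PFOS10 libraries lay above all others.

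In PFOS10 against Control, ascl1b rose by 0.79 ± 0.11 log2 (limma adjusted p = 0.00104), ascl1a by 0.74 ± 0.11 (adjusted p = 0.00115) and neurog1 by 0.68 ± 0.14 (adjusted p = 0.00811). In PFOS70 against Control the differences were -0.02 ± 0.11 for ascl1b, 0.19 ± 0.11 for ascl1a and -0.25 ± 0.14 for neurog1, with adjusted p = 0.975, 0.529 and 0.499. Their differences from Control in POP10 and POP70 ran between -0.18 and 0.05, none past the threshold.

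The 3 factors of differentiating neurons shared, with her6, POP70 libraries that lay wholly below Control. bhlhe22 (bhlhe22-201, chromosome 24, 24461341 to 24463346, plus strand) read 7.01, 7.13, 7.09 and 7.04 log2 RPM in POP10 larvae and 6.88, 6.93, 6.90 and 6.81 in POP70 larvae. It read 7.53, 7.73, 7.74 and 7.42 log2 RPM in PFOS10 larvae and 6.86, 6.96, 7.24 and 7.08 in PFOS70 larvae, against 7.33, 7.38, 7.45 and 7.24 in Control larvae. Every library of POP10, POP70 and PFOS70 lay below every Control library, while 1 PFOS10 library fell within the Control range. bhlhe23 (bhlhe23-201, chromosome 23, 17655790 to 17657348, minus strand) read 6.13, 6.14, 6.01 and 6.17 log2 RPM in POP10 larvae and 5.90, 5.83, 5.95 and 5.74 in POP70 larvae. It read 6.93, 6.92, 6.77 and 6.67 log2 RPM in PFOS10 larvae and 5.98, 5.95, 6.23 and 6.18 in PFOS70 larvae, against 6.45, 6.38, 6.47 and 6.08 in Control larvae. The PFOS10 libraries lay above and the POP70 libraries below the Control range, whose low end was set by Control replicate 4.

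neurod4 (neurod4-201, chromosome 23, 28343988 to 28347039, minus strand), which in the mouse acts in retinal interneurons, read 6.90, 7.00, 7.09 and 6.90 log2 RPM in POP10 larvae and 6.92, 6.59, 6.81 and 6.80 in POP70 larvae. It read 7.67, 7.46, 7.62 and 7.33 log2 RPM in PFOS10 larvae and 6.90, 6.75, 6.92 and 6.78 in PFOS70 larvae, against 7.10, 7.23, 7.23 and 6.97 in Control larvae. The PFOS10 libraries lay above, and those of POP70 and PFOS70 below, all Control libraries.

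In PFOS10 against Control, bhlhe23 rose by 0.48 ± 0.09 log2 (limma adjusted p = 0.00535) and neurod4 by 0.39 ± 0.09 (adjusted p = 0.0108), whereas bhlhe22 differed by 0.25 ± 0.08 (adjusted p = 0.0584). The neurod4 call was lost without Control replicate 4 (adjusted p = 0.0563), and bhlhe22 passed once libraries were shifted to equal medians (adjusted p = 0.0173) and in 4 other alternatives. In POP70 against Control the differences were -0.49 ± 0.09 for bhlhe23 (adjusted p = 0.0664), -0.47 ± 0.08 for bhlhe22 (adjusted p = 0.0547) and -0.35 ± 0.09 for neurod4 (adjusted p = 0.242). Without Control replicate 4, bhlhe23 passed at -0.58 (adjusted p = 0.0072) and bhlhe22 at -0.51 (adjusted p = 0.0278). bhlhe22 also passed with the replicate number as a block (adjusted p = 0.0133), without the PFOS10 libraries (0.0288), after quantile normalization (0.0353) or a shift to equal medians (0.0466) and with array weights (0.0499).

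Counted over the 10 genes, all 4 PFOS10 libraries lay above all Control libraries in 9, a pattern that 2.86% of all tested genes had. Their median log2 difference was 0.46 in PFOS10 against Control, beside a median of -0.03 over the differences of all tested genes. By library, 10, 10, 10 and 9 of the 10 genes lay above the Control range in PFOS10, which restates the count of 9 genes and adds no separate evidence. The share of all tested genes above that range in a single library is not given here. In POP70 against Control, 0 of 10 passed in limma (0.0156% of all genes did), 4 had an unadjusted p under 0.05 (10.2% of all genes), and 4 lay wholly below Control (3.53% of all genes): her6, bhlhe22, bhlhe23 and neurod4. In PFOS70 against Control, 0 of 10 and 0% of all genes passed in limma, 6 genes had an unadjusted p under 0.05 (11.7% of all genes), 4 with a negative and 2 with a positive difference, and her4.2, bhlhe22 and neurod4 lay wholly below Control (1.98% of all genes).

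In POP10 against Control, 0 of 10 and 0% of all genes passed in limma, and 2 of the 10, bhlhe22 and bhlhe23, had an unadjusted p under 0.05 (9.63% of all genes). All 10 differences were negative, at -0.28 to -0.01 log2, and bhlhe22 alone lay wholly below Control (3.1% of all genes). In POP70 replicates 1, 2, 3 and 4, in this order, 0, 1, 2 and 5 genes lay above the Control range and 6, 5, 5 and 4 below it. The share of all tested genes is not given for these counts. On the first principal component, replicates 1 and 2 lay at 35.2 and 24.2, and replicates 3 and 4 at -5.46 and -9.81. The 4 comparisons share the Control libraries, so their values stand side by side and are not independent of each other.

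**Figure D2:**
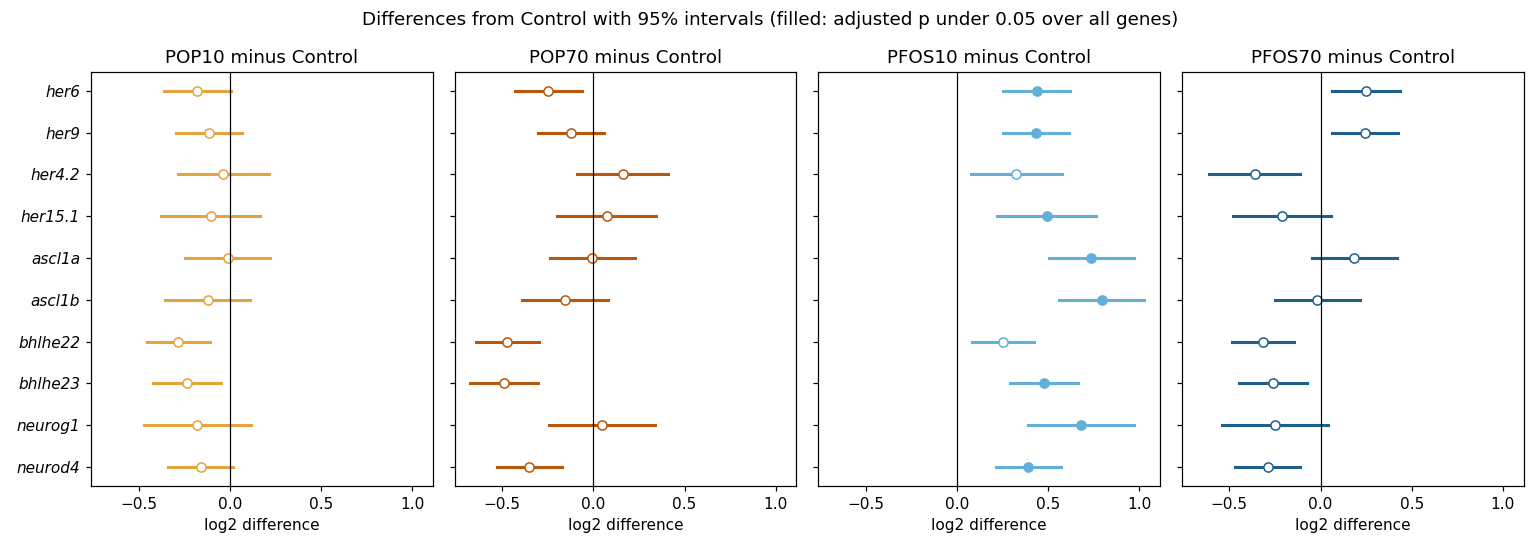
Log2 difference from Control of each of the 10 genes in POP10, POP70, PFOS10 and PFOS70 larvae, as a point with its 95% confidence interval from the limma fit; filled points passed the threshold. In PFOS10 the points run between 0.25 and 0.79 and 8 are filled, while in the other 3 exposures they run between -0.49 and 0.25 and none is filled.

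Other tissues differed in the PFOS10 libraries as well. The summed level of 5 hepatocyte markers was 1251 to 2634 RPM in PFOS10 larvae and 2371 to 6938 RPM in Control larvae, and 3 of the 5 fell. For 4 intestine markers it was 125 to 337 RPM in PFOS10 larvae and 284 to 763 RPM in Control larvae, with 2 that fell, and for 5 exocrine pancreas markers 35.2 to 123 RPM in PFOS10 larvae and 169 to 406 RPM in Control larvae, with 2 that fell. Of 5 photoreceptor markers, at 19150 to 25355 RPM in PFOS10 larvae and 16775 to 20086 RPM in Control larvae, 2 rose. Epidermis had 1 of 4 markers lower, and skeletal muscle, erythrocyte and lens had none past the threshold. Across all tested genes 1.28% rose and 6.97% fell in PFOS10 against Control. In PFOS70 against PFOS10, 5 of 5 hepatocyte, 4 of 4 intestine and 5 of 5 exocrine pancreas markers were higher past the threshold. So were 3 of 4 epidermis, 1 of 5 skeletal muscle and 1 of 4 lens markers, while 3 of 5 photoreceptor markers were lower. Of all tested genes 23.6% passed on the higher side and 10.8% on the lower side. In POP10 against PFOS10, 5 of 5 hepatocyte, 4 of 4 intestine and 4 of 5 exocrine pancreas markers were higher past the threshold. Also higher were 3 of 4 epidermis, 3 of 4 erythrocyte and 1 of 5 skeletal muscle markers, while 4 of 5 photoreceptor markers were lower. Here 19.8% of all tested genes passed on the higher side and 11.6% on the lower side. The dose effect of the mixture less that of PFOS was negative and past the threshold in several markers. These were 5 of 5 hepatocyte, 5 of 5 exocrine pancreas, 3 of 4 intestine, 1 of 4 epidermis and 1 of 4 lens markers. The share of all tested genes on that side is not given here, so these counts stand without a background. None of these markers was at 0 reads over all 20 libraries together, and their part in the results on the 10 genes was not tested.

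At the high level, where PFOS amounts match, mixture and PFOS larvae differed in 1 of the 10 genes. her6 was 1.41-fold lower in POP70 than in PFOS70 larvae, by -0.50 ± 0.09 log2 (limma adjusted p = 0.018), in a comparison in which 0.0829% of all genes passed on the lower side. her9 differed by -0.37 ± 0.09 (adjusted p = 0.102), her4.2 by 0.52 ± 0.12 (adjusted p = 0.0904), neurog1 by 0.30 ± 0.14 (adjusted p = 0.445), her15.1 by 0.28 ± 0.13 (adjusted p = 0.436) and bhlhe23 by -0.23 ± 0.09 (adjusted p = 0.371). The her6, her9 and bhlhe23 libraries of POP70 all lay below those of PFOS70, as in 3.58% of all genes, while the libraries of her4.2, her15.1 and neurog1 overlapped. The other 4 genes differed by -0.19 to -0.06, with 95% intervals that together ran between -0.42 and 0.12. The her6 call was lost with only POP70 and PFOS70 in the fit (adjusted p = 0.186) and without any of 6 single libraries, which were replicates 1, 3 and 4 of POP70 and 1, 2 and 3 of PFOS70 (adjusted p between 0.0515 and 0.111), while her4.2 passed without POP70 replicate 1 (0.65 log2, adjusted p = 0.0181).

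At the low level all 10 genes were lower in POP10 than in PFOS10 larvae and passed the threshold, as did 11.6% of all genes on that side and 19.8% on the higher side. ascl1b differed the most, by -0.91 ± 0.11 log2 (1.88-fold lower, limma adjusted p = 5.29e-05), followed by neurog1 at -0.86 ± 0.14 (1.81-fold lower, adjusted p = 0.000402) and ascl1a at -0.75 ± 0.11 (1.68-fold lower, adjusted p = 0.000229). her4.2 differed the least, by -0.36 ± 0.12 (1.28-fold lower, adjusted p = 0.0278), and the other 6 lay between -0.71 and -0.54. Markers of several other tissues also differed between these groups, and their part was not tested. Every POP10 library lay below every PFOS10 library for all 10 genes, a pattern that 8.32% of all genes had. The her4.2 call was lost without PFOS10 replicate 1 or 4 or POP10 replicate 1 or 2, or with its lowest-numbered transcript (adjusted p between 0.0516 and 0.0815). After a shift to equal library medians, which differed by 0.10 log2, the 10 differences ran between -1.02 and -0.46.

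Between the low and the high level, 8 of the 10 genes differed past the threshold for PFOS and none for the mixture. Each PFOS difference includes the PFOS10 libraries, which stood apart from all others. In PFOS70 against PFOS10, neurog1 fell by 0.93 ± 0.14 log2 (1.91-fold lower, limma adjusted p = 9.95e-05), ascl1b by 0.81 ± 0.11 (1.75-fold lower, adjusted p = 6.68e-05), bhlhe23 by 0.74 ± 0.09 (1.66-fold lower, adjusted p = 2.32e-05) and her15.1 by 0.70 ± 0.13 (1.63-fold lower, adjusted p = 0.000461). her4.2, neurod4, bhlhe22 and ascl1a also fell, by 1.47- to 1.61-fold, and 10.8% of all genes passed on the lower side and 23.6% on the higher side. For these 8 every PFOS70 library lay below every PFOS10 library, as in 8.68% of all genes. her6 and her9 differed by -0.19 ± 0.09 each and missed the threshold (adjusted p = 0.105 and 0.103), with overlapping libraries. After a shift to equal library medians, which differed by 0.14 log2, the differences of the 10 ran between -1.07 and -0.33, and her6 and her9 passed (adjusted p = 0.005 and 0.0049), as they did after quantile normalization (0.0355 and 0.0486).

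In POP70 against POP10, 0 of 10 and 0% of all genes passed in limma (smallest adjusted p = 1), and 3 of the 10 had an unadjusted p under 0.05 (3.01% of all genes). The differences ran between -0.26 ± 0.09 for bhlhe23 and 0.23 ± 0.14 for neurog1, and the libraries of bhlhe22 and bhlhe23 did not overlap (1.18% of all genes on that side).

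The difference between these dose effects was tested directly, as (POP70 less POP10) less (PFOS70 less PFOS10). It was positive and past the threshold in 8 of the 10 genes, beside 2.64% of all genes. The largest was that of neurog1, at 1.16 ± 0.20 log2 (limma adjusted p = 0.00212), followed by her4.2 at 0.88 ± 0.17 (adjusted p = 0.00362), her15.1 at 0.88 ± 0.18 (adjusted p = 0.00507) and ascl1b at 0.78 ± 0.16 (adjusted p = 0.00479). ascl1a, neurod4, bhlhe23 and bhlhe22 lay between 0.38 and 0.56, while her6, at 0.12 ± 0.13 (adjusted p = 0.554), and her9, at 0.18 ± 0.12 (adjusted p = 0.348), missed it. The ascl1a call was lost without POP70 replicate 4 (adjusted p = 0.0574), and that of bhlhe22 without any of 6 single libraries, which were PFOS10 replicates 2 and 3, PFOS70 replicates 1 and 2, POP10 replicate 1 and POP70 replicate 3 (adjusted p between 0.0579 and 0.0742). With the lowest-numbered transcript 6 of the 10 passed, without ascl1b and without her4.2 (0.77, adjusted p = 0.0647).

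**Figure D3:**
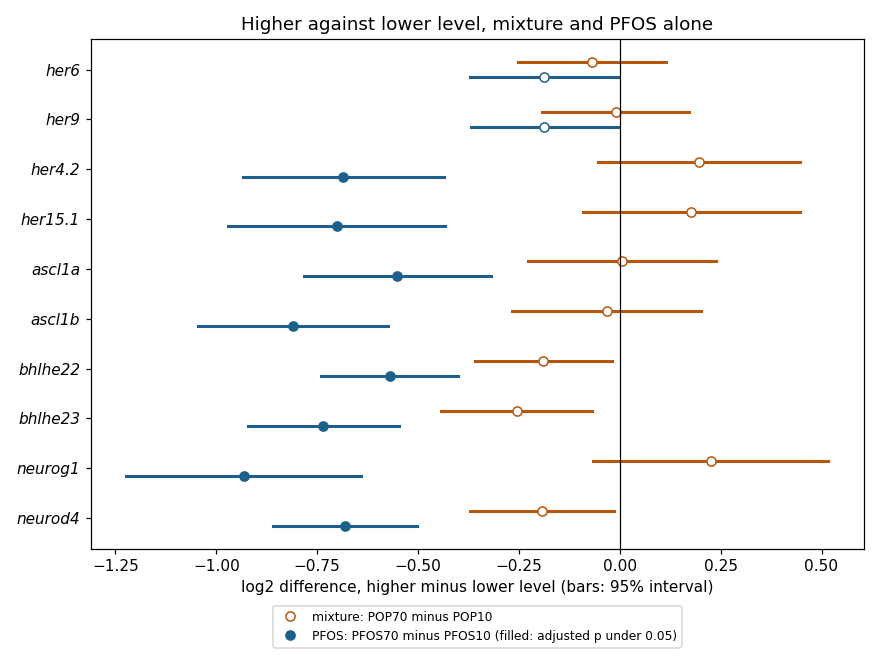
Log2 difference between the high and the low level of each exposure for the 10 genes, with the mixture (POP70 less POP10) above PFOS (PFOS70 less PFOS10) and 95% confidence intervals from the limma fit. The mixture points lie between -0.26 and 0.23, and the PFOS points lie at -0.55 or lower except for her6 and her9, both at -0.19.

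Other transcripts of the same symbols were read too. The second transcripts of her6, her9 and bhlhe22 lie within the first. For ascl1b, however, ascl1b-201 (chromosome 7, 49695964 to 49713882) does not overlap ascl1b-203, had 8 to 48 reads in a library and went the other way: it averaged 1.60 ± 0.45 log2 RPM in PFOS70 larvae and 0.49 ± 0.60 in PFOS10 larvae (SD, n = 4 each), a difference of 1.11 ± 0.35 (SE, limma adjusted p = 0.0186). In POP10 larvae it averaged 1.56 ± 0.19 log2 RPM, which was 1.06 ± 0.35 above PFOS10 (adjusted p = 0.0267). her4.2-201 lies on the opposite strand of chromosome 23 at 21469203 to 21471022 and was higher in PFOS10 than in Control larvae by 0.67 ± 0.20 (adjusted p = 0.0387). No source used here says whether counting used strand.

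Related genes were read from 8 lists chosen by function. Of 19 other her, hes and hey genes tested, 4 rose and 0 fell in PFOS10 against Control: her15.2 by 0.78 ± 0.14 log2 (limma adjusted p = 0.00376), hes2.2 by 0.78 ± 0.20 (adjusted p = 0.0222), hes6, which in vertebrates promotes neuron formation, by 0.40 ± 0.11 (adjusted p = 0.0303), and her12. Their median difference was 0.40. Across all tested genes 1.28% rose and 6.97% fell in this comparison. Of 14 other neural bHLH genes, with a median of 0.25, 3 rose: tal2, a midbrain factor, by 0.48 ± 0.14 (adjusted p = 0.0365), atoh7, which retinal ganglion cells need, by 0.48 ± 0.14 (adjusted p = 0.044), and nhlh2 by 0.28 ± 0.09 (adjusted p = 0.0497). Of 8 E protein and Id genes, the partners and inhibitors of these factors, 0 passed in limma, 2 had an unadjusted p under 0.05, and the median was -0.01. Of the 131 genes of the 8 lists together, 46 (35.1%) had an unadjusted p under 0.05 in this comparison. The share of all tested genes at that p is not given here. Without Control replicate 1, 2 or 4 or PFOS10 replicate 1, 2 or 3, 1 or 2 of the 19 her, hes and hey genes and 0 or 1 of the 14 other bHLH genes passed. Over all alternatives the 3 counts ranged between 1 and 9, 0 and 5, and 0 and 2.

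Of 29 Notch pathway genes, with a median of 0.05, the receptor gene notch2 alone passed in PFOS10 against Control. It fell by 0.37 ± 0.11 log2 (limma adjusted p = 0.0377), where 6.97% of all tested genes fell and 1.28% rose. Of 16 neural progenitor and radial glia genes, with a median of 0.18, 4 rose, among them the eye-field homeobox gene rx1 by 0.56 ± 0.10 (adjusted p = 0.0046), the radial glia gene fabp7a by 0.40 ± 0.10 (adjusted p = 0.0228) and sox3 by 0.31 ± 0.08 (adjusted p = 0.0203). Of 12 retinal bipolar and amacrine genes, with a median of 0.23, 2 rose, among them gnb3a by 0.34 ± 0.10 (adjusted p = 0.0497), and the progenitor and retinal lists share members. Of 17 postmitotic neuron genes, with a median of 0.21, stmn1b rose by 0.25 ± 0.07 (adjusted p = 0.0336) and syt1b, at few reads, fell by 2.23 ± 0.60 (adjusted p = 0.0295), and of 17 cell division genes, with a median of 0.16, 0 passed in limma and 2 had an unadjusted p under 0.05. Over the 131 list genes together that share was 35.1%, and that of all tested genes is not given here. Without Control replicate 1, 2 or 4 or PFOS10 replicate 1 or 3, 1 or 2 progenitor genes and 0 retinal and Notch genes passed. Over all alternatives the counts for the Notch, progenitor, retinal, neuron and cell division lists ranged between 0 and 5, 1 and 8, 0 and 5, 0 and 10, and 0 and 0.

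In PFOS70 against PFOS10 more list members passed, 11 of 19 other her, hes and hey genes, 10 of 14 other neural bHLH genes, 12 of 16 progenitor genes and 7 of 12 retinal genes on the lower side, with 0 on the higher side. hes6 fell by 0.66 ± 0.11 log2 (limma adjusted p = 0.000193), atoh7 by 0.85 ± 0.14 (adjusted p = 0.000233), the eye and brain homeobox gene pax6a by 0.56 ± 0.08 (adjusted p = 5.01e-05) and the bipolar cell homeobox gene vsx1 by 0.77 ± 0.10 (adjusted p = 5.01e-05). The list medians were -0.55, -0.43, -0.38 and -0.45, against 0.05 for the gene differences over all tested genes. Of all tested genes 10.8% passed on the lower side and 23.6% on the higher side, beside which the list counts here and below stand. Of 17 postmitotic neuron genes 10 fell and 2 rose (7 in all without PFOS70 replicate 2), of 17 cell division genes 2 fell (0 to 9 over the alternatives), and of 29 Notch pathway genes 4 fell and 5 rose (5 in all without PFOS10 replicate 3). Among the Notch genes, notch2 rose by 0.72 ± 0.11 (adjusted p = 8.73e-05) and the ligand gene jag1b by 0.55 ± 0.14 (adjusted p = 0.00421). Of 8 E protein and Id genes, id4 and id2a fell, by 0.53 ± 0.08 (adjusted p = 0.000166) and 0.25 ± 0.06 (adjusted p = 0.00306).

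In POP10 against PFOS10 the lists gave 9 lower and 1 higher of 19 other her, hes and hey genes, 6 lower of 14 other neural bHLH genes (2 without PFOS10 replicate 1 and 3 without POP10 replicate 2), 8 lower and 1 higher of 16 progenitor genes, 11 lower and 1 higher of 17 neuron genes and 9 lower of 12 retinal genes. Among them were her8a at -0.56 ± 0.12 log2 (limma adjusted p = 0.00254), olig2, a motor neuron and oligodendrocyte factor, at -0.51 ± 0.09 (adjusted p = 0.000863), and the neuronal RNA-binding gene elavl4 at -0.56 ± 0.11 (adjusted p = 0.00158). Of 8 E protein and Id genes 2 were higher and 2 lower. Among the Id genes, whose proteins block bHLH partners from binding DNA, id1 and id3 were higher in POP10 by 0.32 ± 0.08 (adjusted p = 0.00595) and 0.38 ± 0.10 (adjusted p = 0.00767), and id4 was lower at -0.28 ± 0.08 (adjusted p = 0.0164). Of 29 Notch pathway genes 3 were higher and 2 lower. Of 17 cell division genes 0 passed in limma and 1 had an unadjusted p under 0.05. Of the 131 genes of the 8 lists, 68 (51.9%) had such a p, and the share of all tested genes is not given here. The list counts past the threshold stand beside 19.8% of all tested genes higher and 11.6% lower in POP10 against PFOS10. In POP10, POP70 and PFOS70 against Control, POP70 against PFOS70 and POP70 against POP10, 0 of the 131 genes of these 8 lists passed in limma, and 14, 24, 24, 19 and 2 had an unadjusted p under 0.05. These are 10.7%, 18.3%, 18.3%, 14.5% and 1.53% of the 131 genes, beside 9.63%, 10.2%, 11.7%, 11.1% and 3.01% of all tested genes. The lists differed in this share. In POP10, POP70 and PFOS70 against Control it was highest in the retinal list, at 41.7%, 66.7% and 50.0%. In the Notch list the shares were 0%, 3.45% and 6.9%. All 12 retinal genes had negative differences in these comparisons. So had all 17 postmitotic neuron genes in POP10 and POP70 against Control, while 4 of them were positive in PFOS70 against Control.

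The difference of the dose effects was positive and past the threshold in 6 of 19 other her, hes and hey genes, 4 of 14 other neural bHLH genes, 8 of 16 progenitor genes, 3 of 12 retinal genes, 3 of 17 neuron genes and 1 of 8 E protein and Id genes. It was negative and past it in 2 of 29 Notch pathway genes and in 1 neuron gene. Of 17 cell division genes 0 passed in limma, with 1 at an unadjusted p under 0.05. Of the 131 genes of the 8 lists, 53 (40.5%) had such a p, and the share of all tested genes is not given here. Across all tested genes 2.64% passed on the positive side, and the share on the negative side is not given here. Without POP10 replicate 1, 3 her, hes and hey genes, 1 other bHLH gene and 5 progenitor genes passed, and without POP70 replicate 4, 1 other bHLH gene and 4 progenitor genes. The count of other bHLH genes was 1 or 2 also without PFOS10 replicate 1 or 3, PFOS70 replicate 1, 2 or 3, POP10 replicate 4 or POP70 replicate 3. Over all alternatives the counts ranged between 3 and 10 for her, hes and hey genes, 1 and 6 for other bHLH genes, 4 and 12 for progenitor genes, 3 and 7 for retinal genes, 0 and 11 for neuron genes and 1 and 5 for Notch genes.

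**Figure D4:**
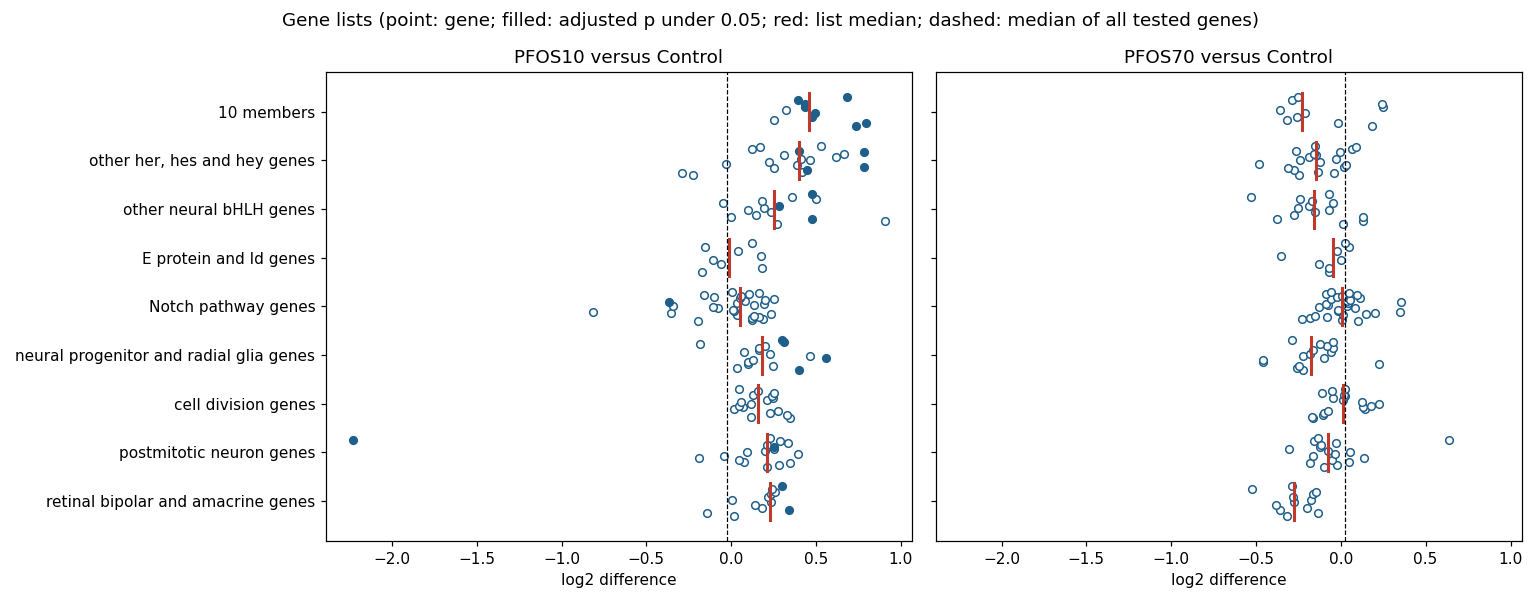
Log2 difference of every gene of the 8 lists and of the 10 genes, in PFOS10 against Control (left) and PFOS70 against Control (right); a point is a gene, filled points passed the threshold, red bars are list medians and the dashed line is the median of all tested genes. The median of the 10 genes is 0.46 on the left and -0.23 on the right, while those of the E protein and Id genes and of the Notch pathway genes stay between -0.05 and 0.05 in both.

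Likeness between genes was described as the root mean square difference of log2 values, each centred on its own mean over the 20 libraries. The search covered 12650 tested genes with a mean of at least 3 log2 RPM, without symbols that are clone or placeholder names. her6 and her9 were each other's closest gene, at 0.0992, which was also the smallest value among the 10 genes, and her6 and her4.2 were the farthest pair, at 0.392. bhlhe22 lay closest to ppm1db (0.0831) and six3a (0.0859), and bhlhe23 to six3b (0.0874) and bhlhe22 (0.124), where six3a and six3b are forebrain and eye homeobox genes. neurod4 lay closest to gnb3a (0.104) and irx6a (0.113). ascl1b lay closest to rx1 (0.151) and ascl1a (0.167), and ascl1a to sox11b (0.126) and srsf1b (0.129). neurog1 lay closest to gadd45gb.1 and her15.1 (0.153), her15.1 to pou6f1 (0.126) and gadd45gb.1 (0.137), and her4.2 to id4 (0.157) and atpv0e2. Between her4.2 and her15.1 the value was 0.196, larger than between her15.1 and neurog1. These values are over 20 libraries of 5 groups and carry no test.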

How the data were processed

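Messenger RNA of whole larvae was sequenced as 20 libraries. Per the submitters' processing notes, the build was GRCz11 and the tools included STAR 2.5.4b, Trim Galore 0.4.5 and, with R 3.5.0, DESeq2, none with a stated role. The authors deposited 48838 transcripts as log2 values, which from the values are log2 RPM with 0 reads written as 0.9 reads; 100% of values of 1 to 1000 reads came out whole within 0.05 reads. No source used here describes the counting step. Genes reaching 0 log2 RPM in 4 or more libraries entered limma 3.58.1, run in R 4.3.3 (1 model of 5 groups, 15 residual degrees of freedom, variance trend, two-sided, Benjamini-Hochberg over all genes, threshold 0.05), a procedure tested on simulated data. Depth sets counting error of reads, not molecules.

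The 10 genes and the lists were chosen with earlier results of these data known, so their p-values describe and do not test the choice. Named were all 10 genes, the 2 genes most like each, and up to 3 list members of smallest p past the threshold, of which 1 is not reported here; her12 and the tandem copy her4.1 were added after their values were seen. Alternatives covered filters, damping by 1 RPM, scaling, variance trend, array weights, voom on recovered reads, a replicate block, other transcripts, fewer groups and each library left out. A fit without the PFOS10 libraries was added after seeing the data.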

Additional observations from a re-analysis of the deposited data

Results flagged for a closer look

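In 3 of 50 sets of 4 libraries, 1 library lay apart from the others by Dixon's criterion, where chance gives about 1 in 20. her6 read 4.66 log2 RPM in POP70 replicate 3, against 4.79 to 4.81 in the other POP70 libraries. her9 read 4.98 in the same library, with the nearest other at 5.22. neurog1 read 3.26 in PFOS70 replicate 4, with the nearest other at 2.98.

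The dose effect of the mixture differed from that of PFOS, by the test of the difference itself in limma, in 8 genes. The differences were 1.16 log2 for neurog1, 0.88 for her4.2, 0.88 for her15.1, 0.78 for ascl1b, 0.56 for ascl1a, 0.49 for neurod4, 0.48 for bhlhe23 and 0.38 for bhlhe22. Each includes the PFOS10 libraries, which stood apart from all others.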

How the results depend on the processing

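Of 59 single differences with an unadjusted p under 0.05, 35 passed the threshold, and 24 of these passed under every alternative; of the 24 that missed it, 7 passed under some alternative. The number of the 10 genes past it in POP70 against Control was 0 and became 1 (bhlhe22, lower) under quantile normalization, equal medians, array weights, the replicate block or without the PFOS10 libraries, and 0 to 2 with 1 library left out. In POP70 against PFOS70 it was 1, 2 with array weights, 0 with only the groups compared, and 0 to 1 with 1 library left out. With 1 library left out, the counts were 6 to 9 in PFOS10 against Control, 9 to 10 in POP10 against PFOS10, 8 in PFOS70 against PFOS10 and 7 to 8 for the difference of dose effects, which was 6 with the lowest-numbered transcript; in POP10 and PFOS70 against Control and POP70 against POP10 they were 0 in every alternative, and limma voom on recovered reads gave the same counts as limma in all 9 comparisons. With the lowest-numbered transcript, 5 differences changed sign: her4.2 in PFOS70 against Control, at 0.0137, and ascl1b, at -0.47 in PFOS10 against Control, 1.06 in POP10 against PFOS10, 1.11 in PFOS70 against PFOS10 and -1.12 for the difference of dose effects; those transcripts lie at other positions and had fewer reads.

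Deviations of same-numbered libraries correlated at -0.22 to 0.25, with 12 of 40 pairs above 0.1. Of 20 libraries, 3 were most like one of their own number. The labels do not say whether equal numbers share a clutch or day, so these values do not settle whether the numbers pair the samples. bhlhe22 missed the threshold without the replicate block and passed with it, in POP70 (limma adjusted p = 0.0133) and PFOS10 (adjusted p = 0.0302) against Control. With the replicate block, 9 of the 10 genes passed in PFOS10 against Control, 10 in POP10 against PFOS10, 8 in PFOS70 against PFOS10 and 8 for the difference of dose effects.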
